A study of Schizosaccharomyces pombe with 25 samples.

Results

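A total of 219 protein-coding genes of the fission yeast Schizosaccharomyces pombe carried an annotated 5′ untranslated region (5′ UTR) of 1000 bases or more, out of 5121 coding genes with an annotated start codon on chromosomes I, IIc and III. The 5′ UTR is the part of the mRNA ahead of the start codon, and its length was taken as the exonic bases upstream of the start codon in the annotation that accompanied the series. A further 8 genes passed the length but were left out because their names begin with mug or meu (mug161, mug86, mug132, mug56, mug150, mug24, meu10 and meu22); without that exclusion 227 genes, or 4.43% of all, passed. The members were chosen by length, so their lengths are given as a description.

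The experiments concern Pht1, the H2A.Z histone variant of this yeast, the remodeller Swr1 that inserts it, and the assembly of the centromeric histone CENP-A, or Cnp1, on new sites. It comprises 25 chromatin immunoprecipitation libraries in 13 groups, grown in YES medium. CENP-A was precipitated from msc1∆, swr1∆, pht1∆ and wt cells carrying cc2∆:cc1 (1 library each), from msc1∆, swr1∆ and pht1∆ cells without it (1 each) and from wt cells (2). Myc-tagged Pht1 was precipitated from msc1∆, swr1∆ and wt cells (4 each), and Swr1-myc and Msc1-flag from wt cells (2 each). No library value was analysed here: the values below are positions and lengths in the reference annotation that all groups share, so they have no replicates and no sequencing depth.

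In this yeast, as in other eukaryotes, the ribosome usually enters at the 5′ end of an mRNA and scans the leader until it meets a start codon. Long leaders give room for upstream start codons, introns and RNA structures that can change how often the main reading frame is translated. Transcription through a leader can also meet transcripts from the other strand or from the gene ahead. In S. pombe, long leaders are best known from genes that respond to nutrients and mating signals, such as ste11, the transcription factor that starts sexual development.

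Short stretches of a few leaders show what these regions hold. All were read from the RefSeq sequence of assembly ASM294v3 at RefSeq's own coordinates, 5′ to 3′ on the gene's strand. The end of the leader and the main start codon (capitals) are shown for the transcription factor genes mbx2 and ste11, the pheromone gene map2, the meiotic regulator mei2, the glucan synthase gene bgs4 and the repressor gene scr1, which are met again in the results. RefSeq gives mbx2 and map2 no leader, so for these the bases ahead of the start codon are genomic sequence.
mbx2, chrII:3626627-3626644, + strand: acaacgtctaatATGggg
ste11, chrII:3985574-3985591, + strand: cttctctacacaATGtct
map2, chrIII:986679-986696, - strand: ttcacatacattATGaag
mei2, chrI:4513287-4513304, - strand: tttaacacataaATGatt
bgs4, chrIII:2255141-2255158, - strand: gcatagtagaaaATGtct
scr1, chrII:1753577-1753594, + strand: tattacttcgtcATGtcc
The base 3 positions ahead of the start codon was A in 136 of 216 members (63.0%) and in 2968 of 4885 other genes (60.8%). Among the 64 members whose leader is long in RefSeq too it was A in 41 (64.1%). These shares were not tested against each other.

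A leader can also hold short reading frames of its own. The frames below lie in leaders that were long in both annotations. They start and stop inside the leader, and capitals mark their start and stop codons.
zfs1, chrII:3487376-3487393, - strand: ATGctcgaacacaatTAA
ste11, chrII:3984416-3984424, + strand: ATGttaTAA
hsr1, chrI:1958541-1958558, + strand: ATGtctacagccttaTAA
mei2, chrI:4513792-4513821, - strand: ATGtgtaaagtttctaatcgattatttTAA
pma1, chrI:3875224-3875238, - strand: ATGcttctcgttTGA
lkh1, chrI:658854-658862, - strand: ATGactTAG
The frame of lkh1, a LAMMER-type protein kinase gene, ended 21 bases ahead of the main start codon. That of zfs1 ended 2707 bases ahead of it.

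The members' 5′ UTRs had a median of 1429 bases (quartiles 1172.5 and 1908.5, highest 4397), against a median of 146 bases in the other 4902 genes (quartiles 69 and 284). No UTR base was annotated for 428 of the 5121 genes. At 1500 bases or more there were 98 members, at 2000 or more 46, and at 3000 or more 8. The UTR made up a median of 45.1% of the members' mRNA, against 8.67% in the other genes. It was longer than the coding sequence in 113 of 219 members (51.6%), against 123 of 4902 other genes (2.51%). The members' coding sequences were not shorter: they had a median of 1527 coding bases, against 1117.5 in the other genes.

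**Figure D1:**
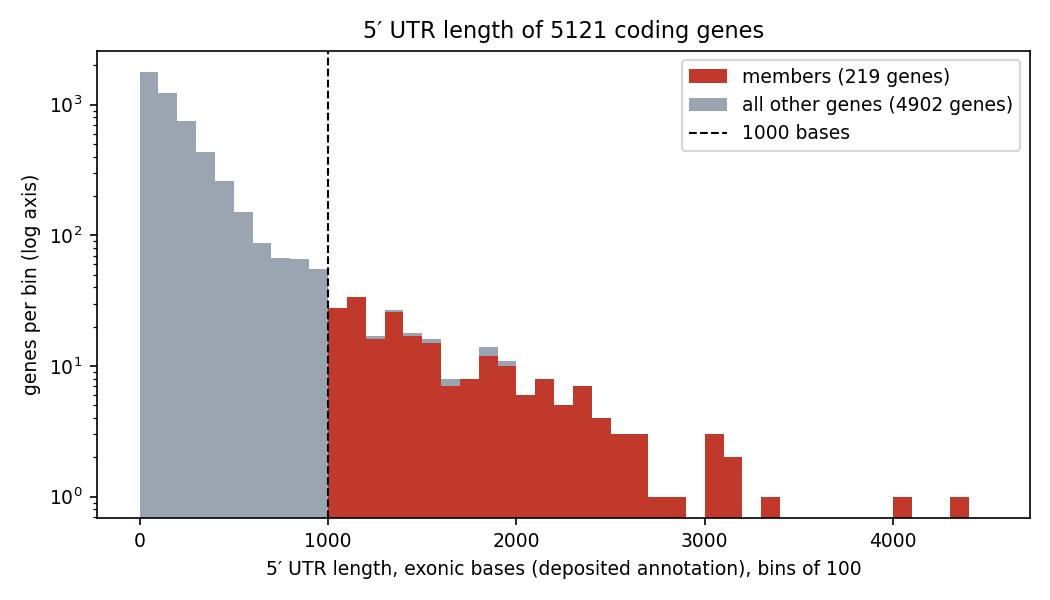
Number of genes (log axis) by 5′ UTR length in bins of 100 exonic bases, members in red and all other genes in grey, with a dashed line at 1000 bases. The bins are stacked and fall with length, and 8 members lie at 3000 bases or more; grey to the right of the line marks the 8 genes left out by name.

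The lengths ran on without a gap across the threshold. The 3 members nearest to it were psd2 with 1001 bases, SPBC31F10.10c with 1012 and rsp1 with 1017. The 3 nearest genes under it were SPBC1652.01 with 989 bases, SPCC188.14 with 987 and rmt3 with 986. Chromosome III held 53 members among 920 genes (5.76%), chromosome I 97 among 2332 (4.16%) and chromosome IIc 69 among 1869 (3.69%).

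The label "long 5′ UTR" rests on this annotation, and a more recent one differs for most members. By systematic identifier, 216 of the 219 members were paired with a gene of the RefSeq annotation of ASM294v3; SPBC354.11c, SPBC32F12.17 and SPBC1685.12c were not. The coding span had the same length for 213 of the 216. The RefSeq UTR reached 1000 bases in 64 of the 216 (29.6%) and had a median of 373.5 bases. It was shorter than the deposited one in 204 members and longer in 12. In 32 members RefSeq had no UTR base at all, and in another 36 it had 1 to 99. The annotations agreed to within 100 bases in 47 of 216 members. Conversely, only 3 of 4885 paired other genes had a RefSeq UTR of 1000 bases or more. The shares below are therefore given also for the 64 members that are long in both annotations, called the doubly long members.

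Whether a leader stayed long went with what lies under it. Among the 65 members whose UTR lay over coding bases of another gene, 5 had a RefSeq UTR of 1000 bases or more (7.69%) and the RefSeq median was 153 bases. Among the 151 paired members clear of other coding sequence, 59 had one (39.1%) and the RefSeq median was 583 bases. Those 5 were gti1, ppk1, SPCC777.03c, rhp16 and SPAC1786.02. The overlap is that of the deposited leader, and the RefSeq leader can stop short of the other gene. For gti1 the RefSeq leader had 1058 bases, and the neighbour's coding sequence lay 3965 bases from the start codon. For ppk1 these values were 1213 and 2383. The other way round, they were 1901 and 251 for SPCC777.03c and 1134 and 103 for rhp16. In these the RefSeq leader was longer than the distance. Among the doubly long members, the deposited minus the RefSeq length had a median of 36.5 bases, ranging from -161 to 3339. The highest of these differences was that of gti1, with 4397 deposited bases and 1058 in RefSeq.

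**Figure D2:**
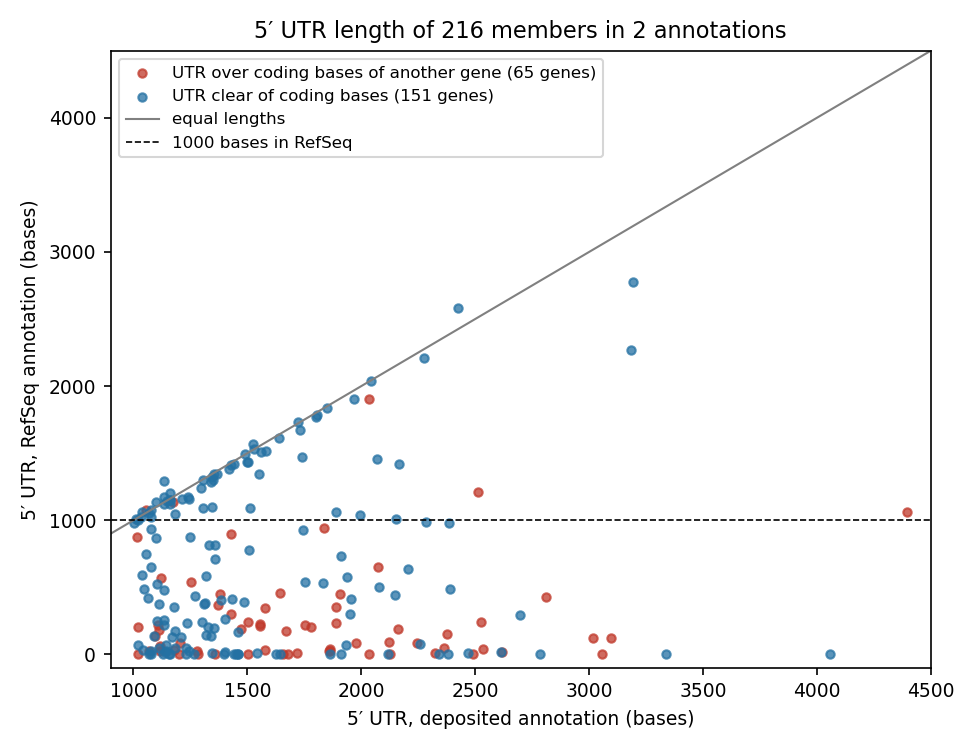
5′ UTR length of 216 members in the deposited annotation (x axis, bases) and in RefSeq (y axis, bases), red where the deposited UTR lies over coding bases of another gene and blue where it does not. The 64 points above the dashed line at 1000 bases lie mostly along the line of equal lengths and are nearly all blue (59 of 64), and a band of 68 genes lies below 100 bases in RefSeq.

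The 12 longest leaders mixed both kinds. gti1, an inducer of gluconate transport, had the longest (chrI:380355-384751 of the deposited annotation, - strand). mbx2, a MADS-box transcription factor that controls flocculation, came next with 4059 bases (chrIIc:3621730-3625788, + strand) and had no UTR base in RefSeq. SPAC1071.13, an uncharacterized gene, had 3338 bases ahead of a coding sequence of 315 bases, and none in RefSeq. zfs1, a CCCH zinc finger protein that acts on mRNA stability, had 3194 bases, and 2778 in RefSeq. SPAC57A7.05 had 3185, and 2271 in RefSeq. Of the 12, zfs1 and SPAC57A7.05 stayed above 2000 bases in both annotations.
Several of the 12 ran over a neighbouring gene, as the map of the longest leaders shows to scale. map2, which encodes the P-factor mating pheromone, had 3055 bases, 5.07 times the length of its coding sequence, and none in RefSeq. SPAC19A8.11c, named a recombination protein in RefSeq, had 3097 deposited bases and 123 in RefSeq. Its leader covered the whole coding sequence of dcp2, the mRNA decapping enzyme, on the other strand (2226 bases). SPAC56E4.07 had 3016 bases and covered 1836 bases of the coding span of ggt2, a gamma-glutamyltranspeptidase gene, also on the other strand. cgr1, a ribosome biogenesis gene with 333 coding bases, had a leader of 2617 bases, and 16 bases in RefSeq. The deposited leader ran over 1784 bases of the coding span of meu1-1. ecl1, a small protein that extends chronological lifespan, had 2783 bases and none in RefSeq. SPBP35G2.02 had 2811 bases and SPBPB7E8.01 had 2698.

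**Figure D3:**
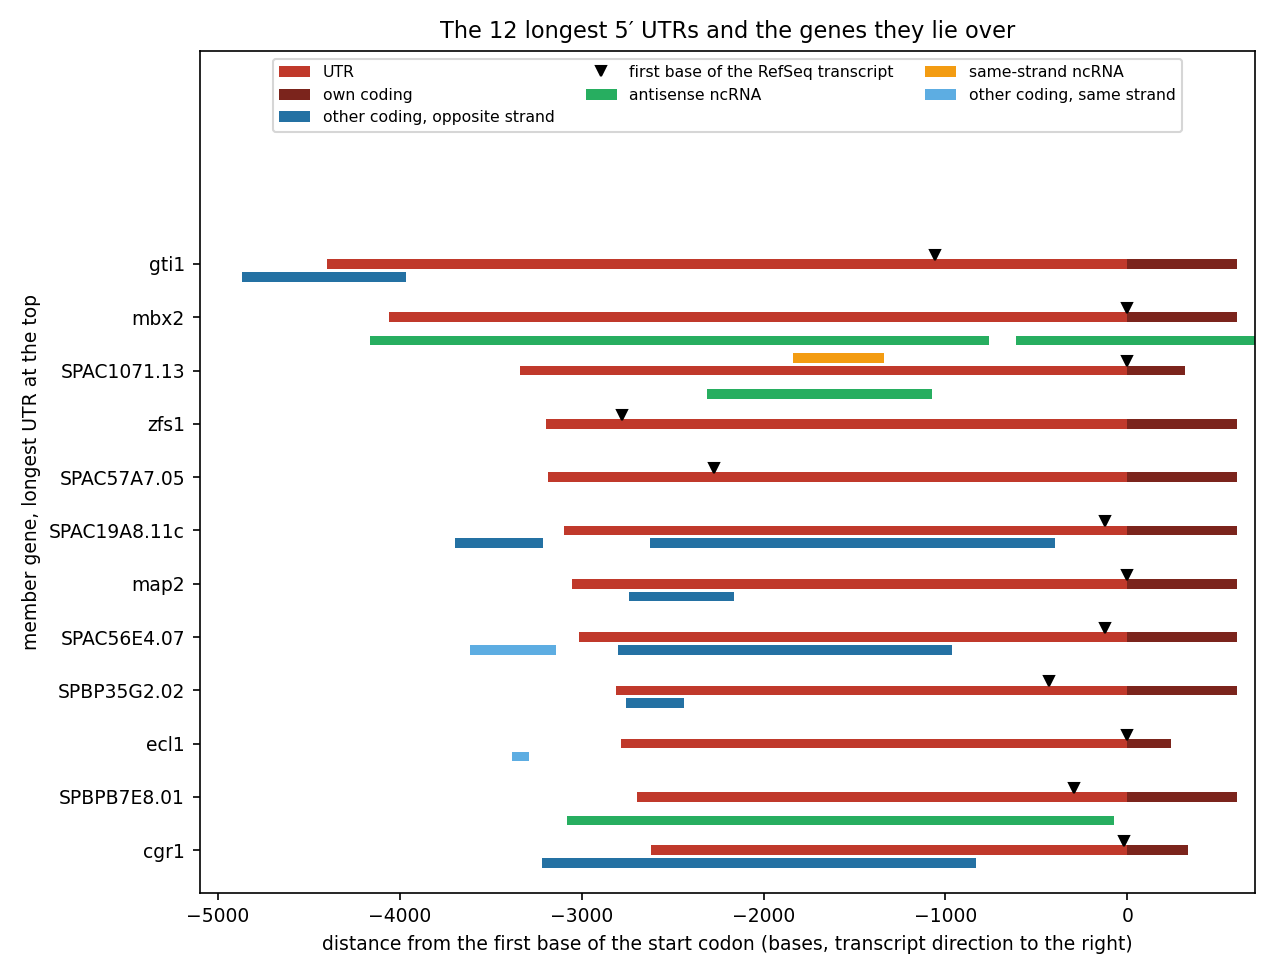
The 12 longest 5′ UTRs to scale, as distance in bases from the first base of the start codon, with the member's UTR (red), up to 600 bases of its own coding span (dark red), coding spans of other genes (blue), antisense and same-strand ncRNA genes (green, orange) and the first base of the RefSeq transcript (triangle). The leaders of SPAC19A8.11c, SPAC56E4.07 and cgr1 lie over another gene's coding span, that of mbx2 over antisense ncRNA genes, and the triangles of zfs1 and SPAC57A7.05 lie farthest upstream.

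Of 10 gene lists, cell adhesion held the highest share of members and hexose uptake the next. The lists were chosen with earlier results of these data known, so this order depends in part on how they were filled. In the list of cell adhesion genes, 9 of 14 were members (64.3%), against 4.43% over all genes, any name kept. The list median was 1197.5 bases, against 155 bases over all 5121 genes. gsf2, the main flocculin of this yeast, had 2042 bases, and 2040 in RefSeq. pfl4, another flocculin, had 1641, and 1615 in RefSeq. pfl2 had 1039, and 1063 in RefSeq, and map4, an agglutinin of mating cells, had 1214, and 1162 in RefSeq. Of the DIPSY-family glycoproteins, pfl7 had 1861 bases but none in RefSeq, and pfl3 had 1181 but 174 in RefSeq. The regulators of the list were mbx2 and cbf12, which the transcription factor list holds too, and lkh1. cbf12 had 1312 bases (383 in RefSeq) and lkh1 1549 (1345 in RefSeq). All of these regulators were members. The list leaves out other factors that stand only in the transcription factor list and were not members. Among these are adn2 with 38 bases, adn3 with 673 and cbf11 with 218. The rest of the list had shorter leaders: mam3 with 586 bases, pfl5 with 511, pfl9 with 230, pfl8 with 140 and pfl6 with none. In the deposited annotation, long leaders thus occur at some of the surface glycoproteins and at mbx2, cbf12 and lkh1. In RefSeq 5 genes of the list are long, and lkh1 is the only regulator among them.

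Among 64 listed transcription factors, 12 were members (18.8%, against 4.43% over all genes), and the list median was 432.5 bases. ste11 had 2274 bases, and 2210 in RefSeq. hsr1, a factor of the oxidative stress response, had 1850, and 1838 in RefSeq. The zinc finger pair of glucose control both stood in the set: scr1, the glucose repressor, had 1489 bases (1496 in RefSeq) and rst2, its activating counterpart, 1304 (1299 in RefSeq). fep1, the repressor of iron uptake, had 1368 (1348 in RefSeq), and loz1, the repressor of zinc uptake, 1018 (1003 in RefSeq). esc1, a helix-loop-helix factor linked to sexual development, had 1161 (1153 in RefSeq). For each of these 7 factors the annotations differed by less than 100 bases. The other 5 were long only in the deposited one: mbx2, rsv2 with 2126 bases (3 in RefSeq), mbx1 with 1745 (930 in RefSeq), cbf12, and the calcineurin-responsive prz1 with 1055 (748 in RefSeq).
RefSeq product names were searched as well, by words picked after the members had been seen. Names that contain transcription factor or repressor belonged to 19 of 216 members (8.80%) and to 109 of 4885 other genes (2.23%). Among the doubly long members they were 12 of 64 (18.8%), and among the members with a shorter RefSeq UTR 7 of 152 (4.61%).

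The lists of mRNA fate and of the cell cycle each held a few members. In the list of RNA-binding and mRNA fate genes, 4 of 22 were members (18.2%, against 4.43% over all genes). The list median was 254.5 bases. All 4 were long in RefSeq too: zfs1, msa1 with 2425 bases (2586 in RefSeq), mei2, the RNA-binding switch to meiosis, with 1723 (1733 in RefSeq), and nrd1, which delays sexual differentiation, with 1354 (1345 in RefSeq). The list leaves out members of related function, such as pabp and sts5: pabp, the major poly(A)-binding protein gene, had 2259 bases but 79 in RefSeq, and sts5, an exoribonuclease gene, had 1103 but 527 in RefSeq. In the cell cycle list, 5 of 25 were members (20%, against 4.43% over all genes), with a list median of 341 bases. Its cyclins were cig2, the S-phase cyclin, with 1349 bases (1298 in RefSeq), pas1 with 1505 (1438 in RefSeq) and puc1 with 1996 (1037 in RefSeq). The other 2 had short RefSeq leaders: mid1, which places the division site, had 1109 bases (220 in RefSeq), and ste9, an activator of the anaphase-promoting complex, had 1092 (137 in RefSeq).

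Some synthases of cell wall glucan had long leaders in both annotations and others did not. Among the members, bgs4 had 1560 bases (1506 in RefSeq), bgs3 1184 (1044 in RefSeq), bgs1 1162 (1121 in RefSeq) and ags1, the alpha-glucan synthase, 1076 (1075 in RefSeq). Of the other synthase genes, mok12 had 954 bases, mok11 198 (but 1136 in RefSeq), and bgs2, mok13 and mok14 none. Product names with the words glucan synthase, picked after the members had been seen and held also by regulators, belonged to 4 of 64 doubly long members, 0 of 152 members with a shorter RefSeq UTR and 7 of 4885 other genes.

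Product names that contain transporter, permease or similar words, picked after the members had been seen, take in importers, efflux pumps, channels and the inducer gti1. They belonged to 35 of 216 members (16.2%) and to 173 of 4885 other genes (3.54%). Of these 35, 8 were doubly long. In the list of hexose uptake and glucose repression, 6 of 19 were members (31.6%, against 4.43% over all genes). The list median was 664 bases. The members include scr1 and rst2, which the transcription factor list holds too. In RefSeq 3 genes of the list were long: ght4, scr1 and rst2. The hexose transporter gene ght4 had 1804 bases (1783 in RefSeq), and ght8 had 2146 (445 in RefSeq). hxk2, a hexokinase, had 1471 bases (193 in RefSeq), and agl1, an alpha-glucosidase, 1076 with none in RefSeq. Outside the list, pma1, the plasma membrane proton pump, stayed long, with 1497 bases and 1432 in RefSeq. In the amino acid and ammonium list 1 of 17 was a member (5.88%, close to the 4.43% over all genes), isp5 with 1401 bases (21 in RefSeq). In the phosphate list it was 1 of 7 (14.3%), the acid phosphatase pho1 with 1184 bases (51 in RefSeq).

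Nutrient signalling and the chromatin genes of the study held few members or none. In the MAP kinase and nutrient signalling list, 2 of 42 were members (4.76%): git3, the glucose receptor, with 1580 bases (1514 in RefSeq) and ppk18 with 1460 (166 in RefSeq). That is close to the 4.43% over all genes. None of the 15 genes of the Swr1 and H2A.Z list was a member, and the highest of them was bdf1 with 473 bases. In the CENP-A and kinetochore list 1 of 20 was (5%), also close to the 4.43% over all genes. It was scm3, the CENP-A chaperone, with 1209 bases but 127 in RefSeq. The proteins that the series precipitated or deleted had shorter leaders, of 420 bases for cnp1, 407 for pht1, 105 for msc1 and 56 for swr1.

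**Figure D4:**
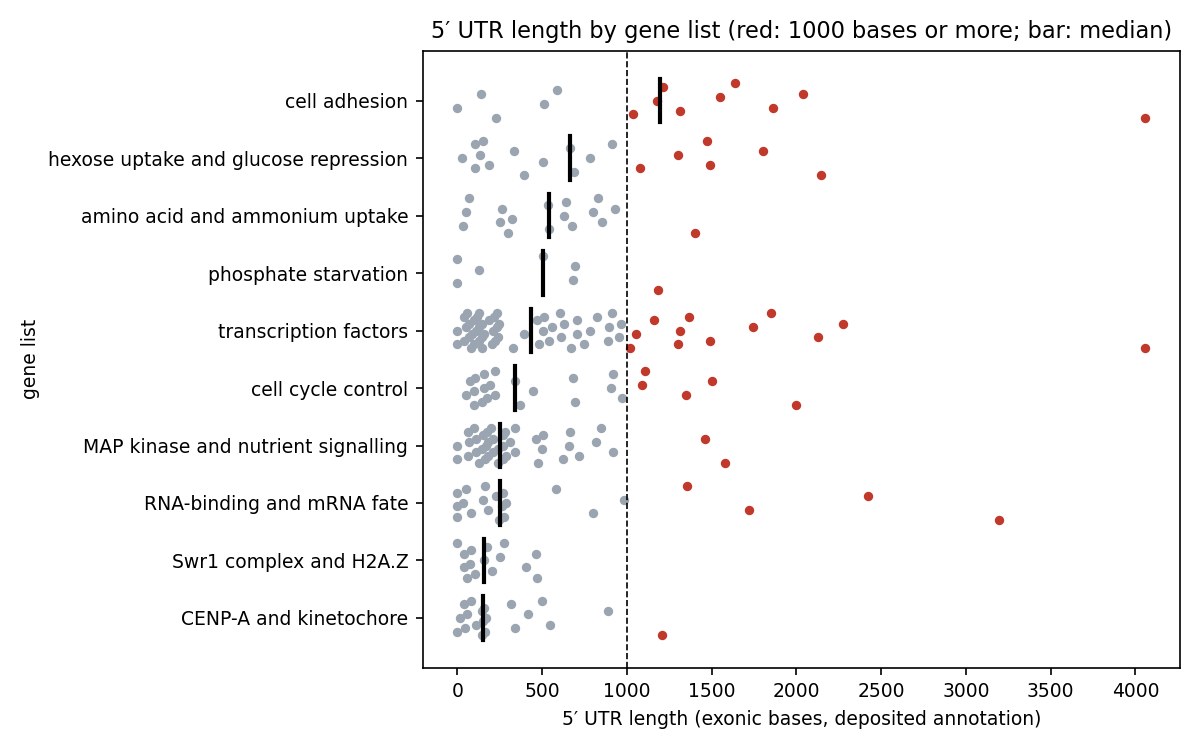
5′ UTR length (exonic bases, x axis) of every gene in 10 lists, red at 1000 bases or more and grey below, with a black bar at each list's median. The cell adhesion list has its median above the dashed threshold line (1197.5 bases), and the Swr1 list lies wholly below it, up to 473 bases.

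Introns in the leader were found in 20 of 219 members (9.13%, exact 95% interval 5.67 to 13.8%), against 149 of 4902 other genes (3.04%) and 3.3% of all genes. Per base the order turned round: the members had 0.0594 introns per kb of UTR, from 21 introns, and the other genes 0.153 per kb. pfl7 alone had 2 introns, of 41 and 56 bases. The longest UTR introns were those of nrc1, a bromodomain protein gene (514 bases), of SPCC1450.09c, a phospholipase gene (334), of mbx1 (151), of puc1 (134), of rga9 (127) and of vps68 (122). Those of SPBC1685.12c had 88 bases, of SPCC191.06 77 and of SPAC11D3.04c 67. Their place varied: that of nrc1 ended 58 bases ahead of the start codon and that of rsv2 1635 bases ahead.
Of the 19 paired members with a UTR intron, RefSeq also had one in 4, each with the length of the deposited intron. Over all paired genes, RefSeq had a UTR intron in 4 of 216 members (1.85%), against 98 of 4885 other genes (2.01%), so the higher share of the members is not seen there. The ends of those 4 introns are shown, with the first 6 intron bases and the last 3 in capitals.
rga9 donor, chrI:4997373-4997383, + strand: tttGTAAGTga
rga9 acceptor, chrI:4997483-4997505, + strand: ttttaaactaacgttttTAGatt
nrc1 donor, chrI:2107365-2107375, + strand: tttGTAAGTag
nrc1 acceptor, chrI:2107862-2107884, + strand: gttaatattaactttttTAGggt
pms1 donor, chrI:4048005-4048015, - strand: aagGTAGGTtt
pms1 acceptor, chrI:4047961-4047983, - strand: agttctaatcgatttgtTAGcac
SPCC576.02 donor, chrIII:2081867-2081877, + strand: cagGTAAATga
SPCC576.02 acceptor, chrIII:2081892-2081914, + strand: cataatcctaacagcgcTAGtag
All 4 begin with GT and end with TAG. GTAAGT, the donor of rga9 and nrc1, was the most frequent donor among the 105 UTR introns of paired genes in RefSeq (39, or 37.1%); GTAGGT of pms1 was found in 4 and GTAAAT of SPCC576.02 in 2. Among the doubly long members, 3 of 64 had a UTR intron in the deposited annotation (4.69%, exact 95% interval 0.977 to 13.1%), and that interval takes in the 3.04% of the other genes. The 3 were SPCC594.01, puc1 and abo1, and RefSeq had no UTR intron in any of them.

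Antisense ncRNA genes lay over the UTR of 72 of 219 members (32.9%, exact 95% interval 26.7 to 39.5%), against 634 of 4902 other genes (12.9%) and 13.8% of all genes. A longer leader offers more room, so the bases were counted as well: antisense ncRNA genes covered 17.0% of the members' 353733 UTR bases and 11.3% of the UTR bases of the other genes. They were 87 different ncRNA genes, and 16 members had more than 1. In 33 members they covered at least 50% of the UTR, and in 4 all of it: rrp1, SPAC6F6.04c, rgs1 and cao1. By bases, mbx2 led with 3913, or 96.4% of its leader, under SPNCRNA.1625 and SPNCRNA.1626. SPBPB7E8.01 had 2624 bases (97.3%) under SPNCRNA.1606. mpc2, a mitochondrial pyruvate carrier gene, had 1836 bases (76.8%), SPCC965.13 had 1831 (76.8%) and SPBC32F12.17 had 1583 (73.7%). Of the doubly long members 15 of 64 had an antisense ncRNA gene (23.4%, exact 95% interval 13.8 to 35.7%), a share between those of the members and the other genes.
Same-strand ncRNA genes lay over the UTR of 33 members (15.1%, exact 95% interval 10.6 to 20.5%), against 170 other genes (3.47%) and 3.96% of all genes. They covered 4.27% of the members' UTR bases and 1.59% of those of the other genes. The most bases were found in SPBC365.16, with 1178 under SPNCRNA.135 (87.5% of the leader). imt2, a mannosyltransferase gene, had 1146 under meu20 and SPNCRNA.585, SPBC16A3.17c 1133 under SPNCRNA.440, the sporulation gene spo3 970 under SPNCRNA.186 and gpi7 814 under SPNCRNA.141. The leaders of SPBC365.16 and spo3 were long in RefSeq as well, with 1321 and 1147 bases. The share of the doubly long members, 10 of 64 (15.6%), was near that of all members. Both strands were covered in 17 members and neither in 131.
RefSeq lists many more ncRNA genes, 7171 against 1536 in the deposited annotation of these chromosomes. With its genes and its UTRs, 56.5% of the paired members had an antisense ncRNA gene, against 48.8% of the other genes, and 5.56% a same-strand one, against 2.07%.

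The gene ahead of a member usually pointed away from it. The nearest coding gene upstream was divergent, on the other strand, for 159 of 219 members (72.6%, exact 95% interval 66.2 to 78.4%), against 2653 of 4902 other genes (54.1%) and 54.9% of all genes. The doubly long members did not share this: 36 of 64 (56.2%, exact 95% interval 43.3 to 68.6%) had a divergent neighbour, and the interval takes in the share of the other genes. Turned round, 28 of 60 members with a same-strand neighbour were doubly long (46.7%), and 36 of 156 paired members with a divergent neighbour (23.1%). Members with a same-strand neighbour had a median of 2547.5 bases between their start codon and the neighbour's coding sequence, against 732 in the other genes with one. For divergent neighbours the medians were 1785 and 1006 bases. These distances take in leader bases, and the members were chosen by leader length. The differences are therefore set in part by that choice. For the flocculin gene gsf2 this distance was 8851 bases, for hsr1 8310, for ste11 7611 and for zfs1 9848.

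The UTR overlapped the transcript of that neighbour in 96 of 219 members (43.8%, exact 95% interval 37.2 to 50.7%), against 650 of 4902 other genes (13.3%) and 14.6% of all genes. The excess lay with divergent neighbours: 87 of 159 members with one overlapped it (54.7%), against 346 of 2653 other genes (13.0%). With a same-strand neighbour, 9 of 60 members overlapped it (15.0%), against 304 of 2249 other genes (13.5%). Among the doubly long members the share was 11 of 64 (17.2%, exact 95% interval 8.90 to 28.7%). A longer leader reaches farther upstream, so the shares of overlap here and below depend in part on the choice by length.
The UTR lay over coding bases of some other gene in 65 members (29.7%, exact 95% interval 23.7 to 36.2%), against 98 of 4902 other genes and 3.18% of all genes. In 62 of the 65 every such gene was on the other strand. The bases covered ranged from 2 to 2226, with a median of 541, and in 39 members the whole coding span of another gene lay inside the leader. These bases are counted over the coding span of the other gene, introns included. After dcp2 under SPAC19A8.11c, the most covered coding spans were SPCC1450.15 under ero12, an oxidoreductase gene of the endoplasmic reticulum (1871 bases), and ggt2 under SPAC56E4.07. The 3 same-strand cases were cwf20 under mid1, SPCC18.20 under rrt2 and new15 under SPBC8D2.11. These 3 also had the longest overlaps with a same-strand neighbour's transcript: 1178 bases for rrt2, 556 for mid1 and 261 for SPBC8D2.11. The next were esc1 and SPAC1B3.15c with 67 bases each.

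**Figure D5:**
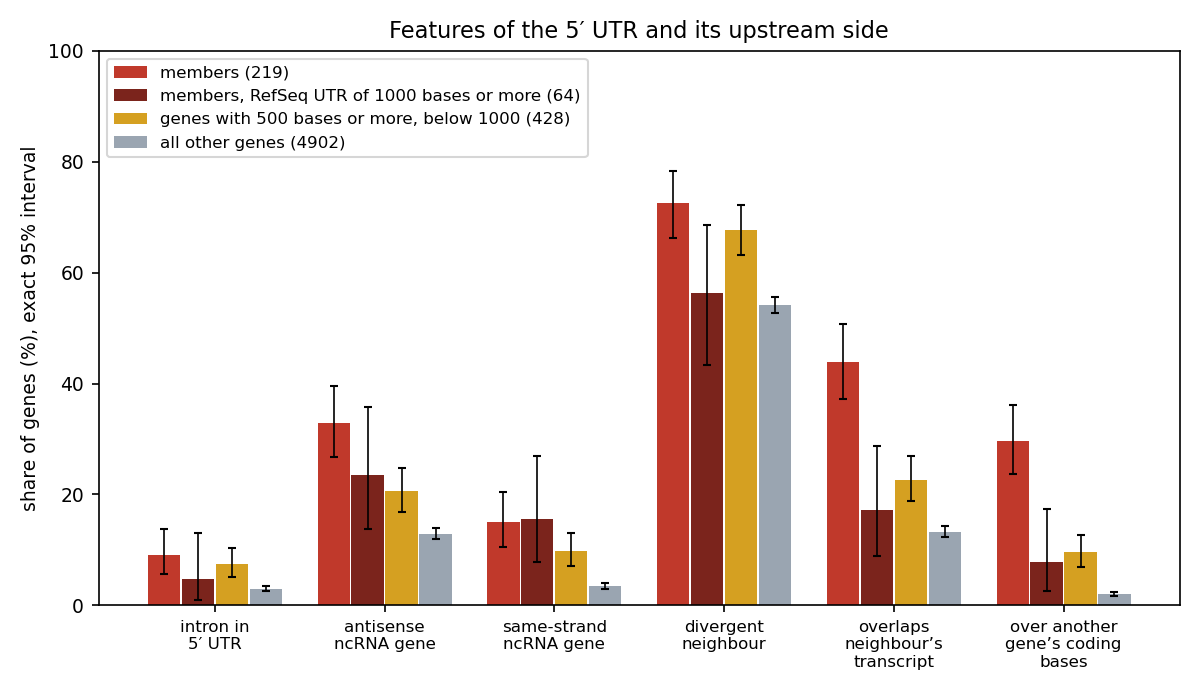
Share of genes (y axis, %, bars from 0, with exact 95% intervals) with each of 6 features, for the 219 members, the 64 doubly long members, 428 genes with at least 500 but fewer than 1000 UTR bases and the 4902 other genes, which include those 428. The members stand above the other genes for every feature, and the bars of the doubly long members fall to 56.2% for a divergent neighbour, 17.2% for a transcript overlap and 7.81% for another gene's coding bases. All 6 features are those of the deposited annotation.

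In 12 places 2 members faced each other head to head, so that 24 members shared their upstream side with another member. In 6 of the pairs the leaders overlapped. The longest overlap, 1624 bases, was that of SPBP35G2.02 and SPBP35G2.17, whose RefSeq leaders have 431 and 0 bases. The leaders of pabp and SPAC57A7.05 overlapped by 1181 bases, and RefSeq gives 79 bases for pabp. top2, encoding topoisomerase II, and SPBC1A4.04 overlapped by 817 bases. sre2, a membrane-tethered transcription factor gene, and mrps16, a mitochondrial ribosomal protein gene, overlapped by 614. In SPAC23C4.06c and tht2 each leader covered the whole stretch of 591 bases between the start codons. In the pairs with no overlap the start codons lay between 3185 bases (bgs1 and mbx1) and 9848 bases (zfs1 and SPBPB7E8.01) apart; in the overlapping pairs this distance was 591 to 4263 bases. The pairs with no overlap also included pma1 and SPAC1071.13, ran1 (a kinase that blocks meiosis) and ubp11, and mfc1 and agl1.

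Upstream ATG triplets were counted in the RefSeq leaders, since their sequence could be read directly. Any ATG on the sense strand counts, in every frame, overlaps included. The 64 doubly long members held 387 in 88797 bases, or 4.36 per kb, and 53 of them had at least 1 (82.8%). The other genes with a RefSeq UTR held 4.82 per kb, and 1529 of 4325 had at least 1 (35.4%). The 5 triplets made of the same 3 letters in another order averaged 11.3 per kb in the doubly long members, ranging from 9.25 to 14.1, and 13.0 per kb in the other genes. ATG thus stood at 0.387 times their mean in the doubly long members and at 0.372 times in the other genes. Of the 387 ATG, 381 began a frame that stopped inside the leader (98.4%), with a median of 11 codons, stop included. In the other genes 84.3% did so, with a median of 8 codons. A longer leader leaves more room for a frame to stop inside it. These differences therefore depend in part on the choice by length. GC content was 33.6% in the leaders of the doubly long members and 31.8% in the other genes.
The ATG were spread very unevenly. In 11 of the 64 leaders there was none, and in 36 there were 1 to 5. Another 15 leaders held 10 or more each and together 288 of the 387. scr1, with 1496 RefSeq bases, bgs4 with 1506, bfr1, a drug efflux pump gene, with 1411, ags1, bgs3, esc1, loz1 and pfl2 had none. zfs1, ste11, hsr1 and mei2 had 3 each, in leaders of 2778, 2210, 1838 and 1733 bases. SPCC777.03c had the most, 42 in 1901 bases, and its deposited leader lay over 1566 bases of the coding span of SPCC777.04. The kinase gene ppk33 and ght4 had 29 each, the agglutinin gene map4 and pfl4 22 each, spo3 20, msa1 17 and gsf2 14. The adhesion genes thus fell on both sides, with none in pfl2 and 22 in pfl4.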

How the data were processed

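All 25 samples are chromatin immunoprecipitation libraries; none of the processed files analysed holds a value of a library, so no depth, enrichment or comparison between genotypes is given. Build ASM294v2 and the tools bedtools, deepTools 2.5.3, BWA, SAMtools and Bowtie2 are named in the submitters' processing notes. The values used are positions and lengths in bases of the modified reference, as the authors deposited them. How its IIc was built was not given in the sources used here. IIc has 4538954 bases and chromosome II of RefSeq ASM294v3 4539804, so coordinates were not carried between builds. Chromosomes I and III have equal lengths in both. Genes were paired by systematic identifier.

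With Python 3.11.15, the leader of each gene was taken from its longest transcript; 1 gene has more than 1. A leader with at least 1 exonic base under an ncRNA gene counts as overlapped. The upstream neighbour is the coding gene whose coding sequence ends nearest to the start codon. Coding bases of another gene under a leader are those of its coding span, from first to last coding base, introns included. RefSeq start codons read ATG in 5100 of 5101 paired genes. Shares carry exact (Clopper-Pearson) 95% intervals from scipy 1.17.1, which cover counting only; no test was run, as genes are not replicates. The functions were tested on simulated annotations. The members, lists, measures and alternatives were chosen with earlier results of these data known, and words searched in product names after the members had been seen. Genes are named by fixed rules: the 12 longest leaders, the 10 with most UTR introns, the 5 with most bases under antisense and under same-strand ncRNA, the 5 longest same-strand neighbour overlaps, all listed members, 3 genes each side of the threshold, and cnp1, pht1, swr1 and msc1. Others were chosen after their values were seen. Another list, of cell wall genes, is not reported here.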

Additional observations from a re-analysis of the deposited data

How the results depend on the processing

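The count of 219 members was 636 at 500 bases or more, 98 at 1500, 46 at 2000 and 66 with the RefSeq annotation. Counting introns or keeping every name moved it by less than 1.5 times. Using the shortest transcript left it at 219. Only 1 gene has more than 1 transcript, so that choice could hardly move the count. The share with a UTR intron moved to 1.85% in RefSeq, where the other genes had 2.01%, and 4.69% in the doubly long members. The antisense share moved to 15.1% where at least 50% of the UTR had to be covered, 56.5% in RefSeq, 23.4% in the doubly long members and 40.3% without members over another gene's coding bases. The same-strand share moved to 3.65% at 50% of the UTR and to 5.56% in RefSeq. The divergent share moved to 52.5% for the nearest gene of any type that does not overlap, 82.6% at 2000 bases or more, 58.5% among neighbours that do not overlap, 56.2% in the doubly long members and 63.0% without members over coding bases. The overlap share moved to 65.2% at 2000 bases or more, 29.7% for the neighbour's coding span, 17.2% in the doubly long members and 20.1% without members over coding bases. The cause was not tested, beyond what each choice sets by construction. Leaving out any 1 chromosome kept all 5 shares inside the exact 95% intervals of the full set. The RefSeq alternatives for the shares, and all doubly long and coding-base alternatives, were chosen after seeing the data. No paired analysis was possible because no file gives a value of a library.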

Other observations

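Among the wtf genes, a family tied to meiotic drive, 2 of 19 were members: wtf11 with 2492 bases and wtf5 with 2383. Over all genes 4.43% passed the length, any name kept. RefSeq names wtf5 an antidote-like suppressor of meiotic drive and wtf11 a wtf element. These 2 members had no UTR base in RefSeq, and no other gene of the family exceeded 474 bases.

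Some members lie beside genes of the chromatin pathway that the series addresses. SPAC343.21, an uncharacterized gene with a leader of 1643 bases, is divergent from msc1, with 3545 bases between its start codon and the coding sequence of msc1. mhf2, whose product binds DNA with its partner at centromeres and stalled forks, had 1096 bases that covered coding bases of swc5, a subunit gene of the Swr1 complex, and of dph5. Its RefSeq leader has 134 bases.

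Apart from genes left out by name, RefSeq gave 1000 bases or more to 2 genes that were not members: mok11, an alpha-glucan synthase gene, with 1136 bases and 198 in the deposited annotation, and csr102 with 1046 and 382.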
